A study of Mus musculus with 12 samples.

Results

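The genes described here are 9 enzymes and inhibitors that crosslink or take apart the extracellular matrix of the heart: the lysyl oxidases Lox, Loxl1 and Loxl2, the matrix metalloproteinases Mmp2 and Mmp14, and the tissue inhibitors of metalloproteinases Timp1, Timp2, Timp3 and Timp4. They were taken by name, as the rows of the gene count table whose Ensembl identifiers map to these symbols. This rule uses no measured value, but members and lists were chosen with earlier results of these data known. These are 9 of 55401 rows, and all 9 were among the 16213 genes that had enough counts to be tested. RNA was sequenced in bulk from hearts of WT C57BL/6J mice, an inbred laboratory strain, with 3 libraries in each of 4 groups: females and males, each either exercised or sedentary. The exercised animals were put through treadmill running, 5 days a week over 6 weeks, in daily sessions of 45 min and at 1 km/h. Sedentary mice were matched for age and stayed in their cages for these 6 weeks, and no group carried a transgene. The sources used here give neither the ages nor how each heart was trimmed. The labels do not say that each library came from a separate animal, and p-values measure only the spread from library to library.

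Collagen and elastin leave the cell as soluble molecules and gain strength only once they are joined to each other. Lysyl oxidases are secreted copper enzymes that oxidise lysine side chains of collagen and elastin, and the aldehydes so made react into crosslinks. Metalloproteinases cut matrix proteins. Mmp2 is a secreted gelatinase, made as an inactive precursor, and Mmp14 is anchored in the cell membrane, where it cuts collagen and activates the Mmp2 precursor together with a molecule of Timp2. The tissue inhibitors block the active site of metalloproteinases. In the heart, fibroblasts are known as a main source of most of these genes, and Timp4 is known as an inhibitor with high expression in heart tissue.

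Counts totalled 22204349 to 32566240 per library. Levels are given as CPM, counts divided by the scaled library size, and in CPM per kb of exon where genes are compared with each other. In bulk RNA, fewer cells of a type and less RNA per cell cannot be told apart. Markers of heart muscle were high in every library, at 59823 to 70133 CPM summed over 8 genes. Transcripts of atrial muscle were uneven: 7 markers, among them Nppa, summed to 91.1 to 413 CPM in exercised females, 276 to 438 in sedentary females, 60.2 to 104 in exercised males and 74.0 to 163 in sedentary males. Female exercised 2 and female sedentary 1 and 2 stood apart in 3 of these, Myl7, Sln and Myl4, with sums of 56.6 to 260 CPM against 1.49 to 6.83 CPM in the other 9 libraries. The sex differences of the members and lists are therefore also given for the other 9 libraries. There sedentary females are 1 library, female sedentary 3, whose spread is taken to be that of the other groups. By the sum of all 7 markers this library still lay above every male library, so the 9 libraries are not even in atrial transcripts.

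Loxl2 (ENSMUSG00000034205.16) lies on the plus strand at chr14:69609068-69695834 of the mouse build GRCm38, and it has a near neighbour that bears on its counts. Gm21451, annotated as an unprocessed pseudogene on the same strand at chr14:69390854-69480287, shares 2348 bases with the 5316-base Loxl2 transcript at 100% identity, which is 44.17% of that transcript. The shared stretch runs from base 62 to base 2409 of the transcript and so covers most of the coding sequence, from base 271 to base 2598. A read that falls wholly within it cannot be assigned to either locus by sequence. Both lines below show where the stretch ends, on the plus strand, with 30 shared bases in lower case from exon 12 and the 30 bases of exon 13 that follow in capitals.
Loxl2, chr14:69690241-69690270 and chr14:69692314-69692343: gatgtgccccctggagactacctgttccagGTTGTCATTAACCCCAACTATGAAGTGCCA
Gm21451, chr14:69471966-69471995 and chr14:69477396-69477425: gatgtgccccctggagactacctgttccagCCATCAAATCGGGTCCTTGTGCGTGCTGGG
The sources used here do not give how the counting treated reads with more than 1 position, and the values of Loxl2 and of Gm21451 are uncertain. The Loxl2 tests below are therefore also given with the counts of both summed, a setting added after the data were seen. Its levels, shares and correlations are for the Loxl2 row alone.

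The other members lie apart from such copies. No stretch of 50 bases of the Lox, Loxl1, Mmp2, Timp1 or Timp2 transcripts occurred in a transcript of another gene. Loxl1 is at chr9:58287738-58313186 on the minus strand, Mmp2 at chr8:92827291-92853420 and Mmp14 at chr14:54431612-54445364, both on the plus strand. All but Timp2 of the inhibitor genes sit inside genes of the synapsins, which are proteins of synaptic vesicles, on the opposite strand. Timp1 (chrX:20870166-20874735, plus) lies within Syn1 and shares 0 exon bases with it. Timp3 (chr10:86300372-86349506, plus) lies within Syn3 and shares 1733 exon bases, and Timp4 (chr6:115241892-115252205, minus) lies within Syn2 and shares 90. Timp2 is at chr11:118301069-118355740 on the minus strand. Nothing in the sources used here gives the strand setting of the counting. Reads of a host gene and of the inhibitor cannot be told apart where exons overlap. An antisense gene, Gm27177, likewise shares 301 exon bases with Loxl2 and had at most 105 counts in a library. The synapsin rows themselves were low, with at most 12 counts in a library for Syn1, 27 for Syn3 and 122 for Syn2.

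Timp1 and Timp4 were the inhibitors whose level varied most between libraries, with a coefficient of variation over the 12 libraries of 47.5% for Timp1 and 23.9% for Timp4, against 13.2% for Timp2 and 12.3% for Timp3. The 250 bases before their start sites are printed for that reason, from RefSeq on GRCm38.p6, 5′ to 3′ on the strand of the gene. Capitals mark matches on either strand to the GC box GGGCGG and to the ETS core GGAAGT.
Timp1, chrX:20869916-20870165, plus strand: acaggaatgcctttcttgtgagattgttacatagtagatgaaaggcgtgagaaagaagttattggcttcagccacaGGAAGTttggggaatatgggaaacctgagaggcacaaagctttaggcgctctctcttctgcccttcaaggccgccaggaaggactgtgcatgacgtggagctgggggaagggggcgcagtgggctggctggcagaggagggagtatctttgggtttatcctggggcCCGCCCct
Timp4, chr6:115252206-115252455, minus strand: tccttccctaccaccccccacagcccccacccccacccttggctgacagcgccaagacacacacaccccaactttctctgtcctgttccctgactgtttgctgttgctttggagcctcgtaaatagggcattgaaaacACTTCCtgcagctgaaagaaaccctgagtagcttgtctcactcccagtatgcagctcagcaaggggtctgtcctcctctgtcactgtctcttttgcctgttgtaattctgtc
The Timp1 window is 54.4% G and C and holds 6 CpG dinucleotides, and the Timp4 window is 53.6% G and C and holds 2. The medians over 32817 mouse promoter windows of this length are 52.4% and 6. The windows of Timp2 and Timp3 are richer, at 68.0% with 21 CpG and 65.6% with 18 CpG. A link of base content to the spread of levels was not tested. Across all these promoter windows, 32.7% hold a GC box and 19.7% an ETS core. The 5 members with an entry (Timp1 to Timp4 and Mmp14) were also searched on both strands for the AP-1 motif TGANTCA, the TATA box TATAAA and the E-box CACGTG, which occur in 6.75%, 12.4% and 6.02% of windows. None of these 3 was found in the 5 windows, which says only that these letters are not in them.

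Timp2, Mmp2 and Timp3 were the most abundant members per exon length. Timp2, which also takes part in Mmp2 activation, stood at 28.7 CPM per kb as a mean over the 12 libraries. Mmp2 followed at 21.8 and Timp3, the inhibitor that binds to the matrix itself, at 21.0. Loxl1, the lysyl oxidase best known for elastin, had 14.2 CPM per kb and Timp4 had 11.4. Below these came Loxl2, known for crosslinking collagen of basement membranes, at 5.94, and Mmp14 at 3.13. Timp1, the inhibitor known to be induced in injured tissue, had 2.11 and Lox, the founding member of its family, 1.44. Within libraries, Timp2 lay above Mmp2, Timp4 above Loxl2 and Loxl2 above Mmp14 in 12 of 12. Mmp2 lay above Timp3 in 6 of 12 libraries, and Loxl1 above Timp4 and Timp1 above Lox in 9 of 12 each, so the order of these 3 pairs changed between libraries. Timp3 lay above Loxl1 and Mmp14 above Timp1 in 11 of 12. Lengths were those of all exons merged. With the longest transcript instead, Timp3 had 36.2 CPM per kb and came before Timp2 at 30.1, and Mmp14 had 5.75.

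**Figure D1:**
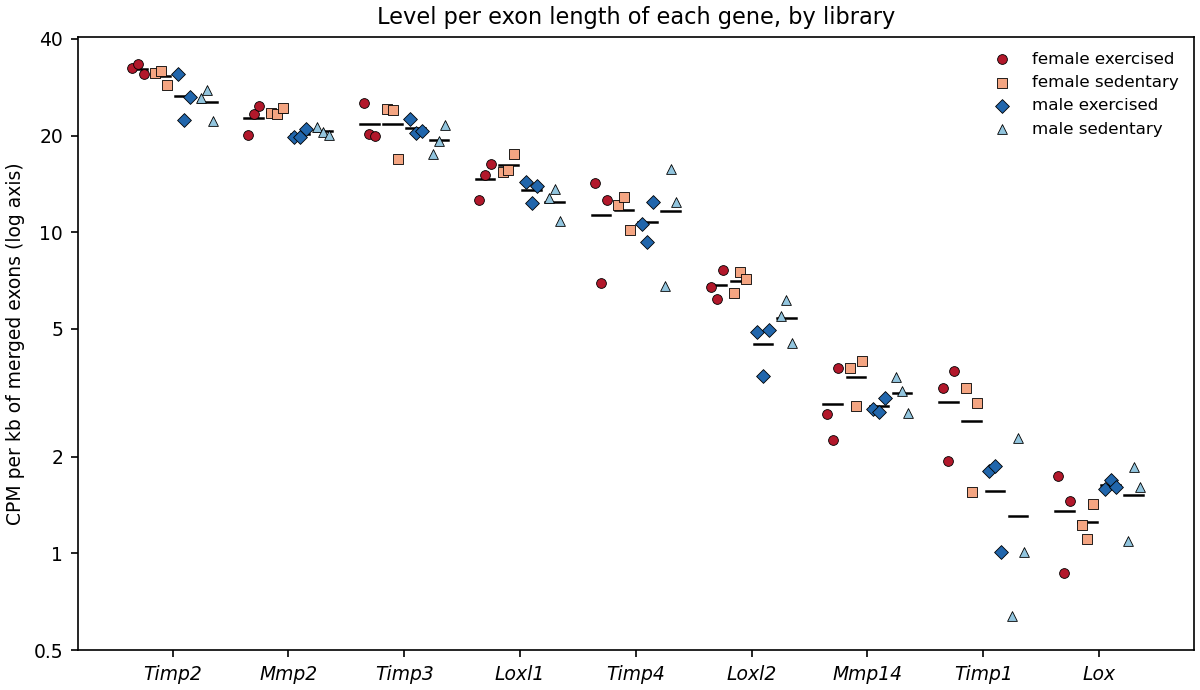
Level of each of the 9 genes in CPM per kb of merged exons (log axis), with 1 point for each of the 12 libraries, coloured by group. Timp2, Mmp2 and Timp3 lie highest and Lox and Timp1 lowest, and Timp1 has the widest spread.

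The members were set against the rest of their families on the same scale. Among 15 other metalloproteinases listed, Mmp15, a membrane-anchored protease, came nearest to Mmp2, with a mean of 19.5 CPM per kb. Mmp23 had 2.89, Mmp3 2.45, Mmp11 1.98 and Mmp13, a collagenase, 1.80. Mmp9, the gelatinase of neutrophils and macrophages, had 0.39. Mmp8, Mmp10, Mmp24 and Mmp25 had too few counts to be tested. The remaining lysyl oxidases were low as well, with 1.54 CPM per kb for Loxl3 and 0.30 for Loxl4.

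The comparison of exercised with sedentary hearts asks which transcripts 6 weeks of running changed. None of the 9 members passed the test between exercised and sedentary hearts in either sex. With edgeR's quasi-likelihood test and Benjamini-Hochberg adjustment over all 16213 genes, 0 of 9 members passed an adjusted p of 0.05 in females and 0 of 9 in males, where 0.0% of all genes passed in each. By unadjusted p under 0.05 the count was also 0 of 9 in both, against 3.93% of all genes in females and 7.84% in males. DESeq2 and limma's voom called none of the 9 either. In no member did the 3 exercised libraries lie all above or all below the 3 sedentary ones, which 9.79% of all genes did in females and 12.3% in males. The median log2 difference over the members was -0.04 in females and 0.07 in males, against 0.00 over all genes in each sex.

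Among the lysyl oxidases, Loxl2 came closest in males. Its levels were 26.4, 19.3 and 26.8 CPM in exercised males and 29.7, 33.3 and 24.4 CPM in sedentary males. Male exercised 2 was the lowest of all 12 libraries, and the groups overlapped. The log2 difference was -0.27 ± 0.14 (SE, n = 3 against 3), with an adjusted p of 0.639 by edgeR, and it was -0.28 with the counts of the copy added. In females the Loxl2 difference was -0.04 ± 0.13, and -0.05 ± 0.15 with the copy added. Loxl1 had a log2 difference of -0.14 ± 0.11 in females and 0.12 ± 0.11 in males. Lox, with 104 to 210 counts per library, had 0.12 ± 0.23 in females and 0.11 ± 0.23 in males.

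Mmp2 gave the tightest estimate of the set. Exercised females had 67.8, 78.9 and 83.1 CPM and sedentary females 79.1, 78.8 and 81.9 CPM. Female exercised 2 lay within the range of the sedentary females, female exercised 1 below it and female exercised 3 above it. The fold difference was 0.959, with a 95% interval of 0.861 to 1.07. Exercised males had 66.9, 66.7 and 70.7 CPM against 71.8, 69.1 and 67.6 CPM in sedentary males, with a fold of 0.980 and an interval of 0.879 to 1.09. Mmp14 had the smallest p of the members in females, 0.129 unadjusted, with 17.4 ± 4.61 CPM after exercise against 21.1 ± 3.49 CPM without it (SD, n = 3). Its log2 difference was -0.28 ± 0.17 in females and -0.14 ± 0.17 in males, and the average of both was -0.21 ± 0.12 with an adjusted p of 0.794 by edgeR.

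Timp2 and Timp3 had small differences in both sexes. Timp2 had a log2 difference of 0.08 ± 0.11 in females and 0.07 ± 0.11 in males, and Timp3 had 0.01 ± 0.13 and 0.12 ± 0.13. Timp4 had -0.06 ± 0.33 in females and -0.11 ± 0.33 in males. Timp1 had 0.20 ± 0.41 in females and 0.26 ± 0.46 in males, the largest positive estimates of the 9 genes in both sexes. For these last inhibitors the data allow a wide span. The 95% interval of the fold in females ran from 0.571 to 1.61 for Timp4 and from 0.621 to 2.13 for Timp1, and in males from 0.549 to 1.56 and from 0.603 to 2.38. Timp1 rested on 15 to 87 counts per library. A change within these intervals was not excluded for either inhibitor.

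**Figure D2:**
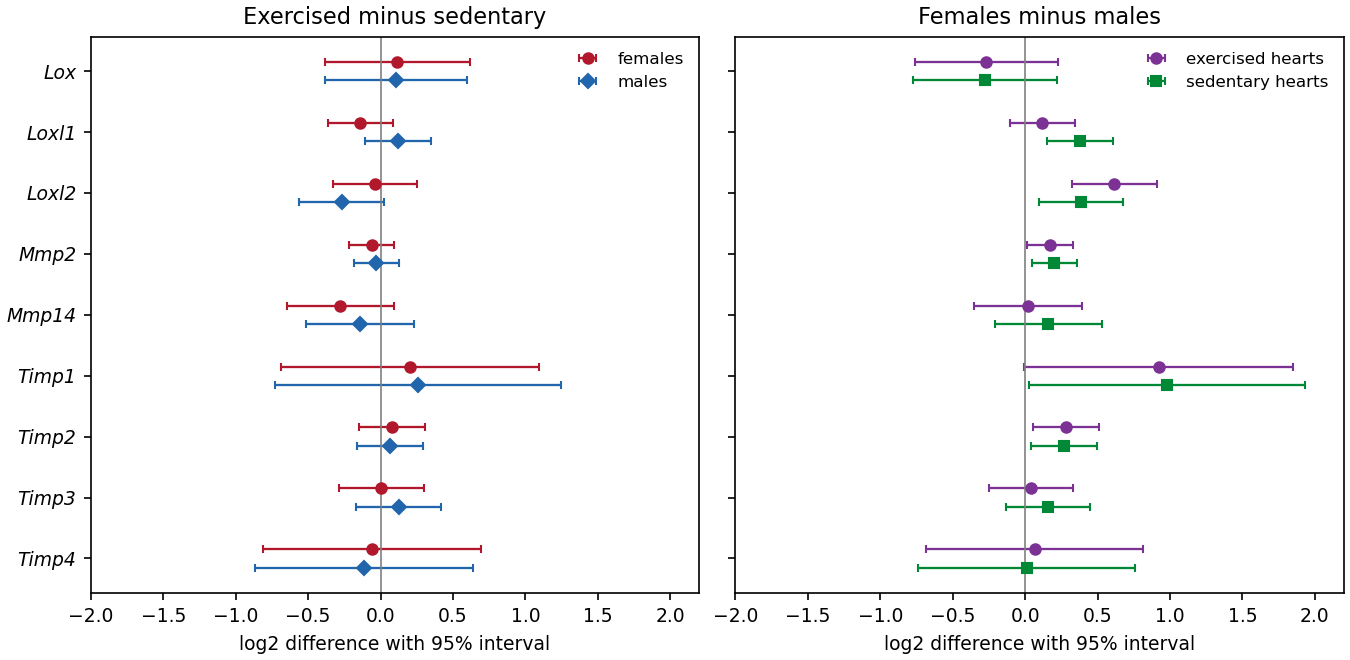
Log2 difference of each gene with its 95% interval (x axis) for exercise in each sex and for females against males in each condition. The exercise differences all have intervals that include 0, and the sex intervals of Loxl2, Mmp2 and Timp2 lie above 0 in both conditions.

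The effect of exercise was also compared between the sexes. None of the 9 members passed for the difference of the exercise effects, where 0.0% of all genes passed with edgeR, and 0 of 9 had an unadjusted p under 0.05, against 4.74% of all genes. The smallest p was that of Loxl1, with females minus males at -0.26 ± 0.15 on the log2 scale and an adjusted p of 0.930. Loxl2 had 0.23 ± 0.19, and 0.23 ± 0.21 with the copy added. For the exercise effect averaged over both sexes, 0 of 9 members passed with 0.0% of all genes, and 0 of 9 had an unadjusted p under 0.05 against 6.28%.

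Females and males differed more than exercised and sedentary hearts did. In sedentary hearts 8 of the 9 members had a higher level in females, where 52.4% of all genes did, and Lox was the exception. None passed an adjusted p of 0.05 with edgeR, where 2.21% of all genes passed. By unadjusted p under 0.05, 5 of 9 were higher in females against 9.11% of all genes. In exercised hearts 0 of 9 passed against 0.16% of all genes, and 3 of 9 had an unadjusted p under 0.05, all higher in females, against 4.84%. These contrasts do not share libraries with each other. A contrast of females with males over both conditions was added after the values had been seen, and there 1 of 9 members passed, Loxl2, against 5.05% of all genes.

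Loxl2 was higher in females by 1.41-fold over both conditions, with a 95% interval of 1.22 to 1.63. Exercised females had 36.5, 33.4 and 41.3 CPM and sedentary females 34.9, 40.6 and 38.8 CPM. The males listed above ran from 19.3 to 33.3 CPM, so that all 6 female libraries lay above all 6 male libraries. The nearest were female exercised 2 at 33.4 CPM and male sedentary 2 at 33.3 CPM, and 3.45% of all genes separated the sexes in this way. The log2 difference was 0.38 ± 0.14 in sedentary hearts (adjusted p = 0.156), 0.61 ± 0.14 in exercised hearts (adjusted p = 0.139) and 0.50 ± 0.10 over both (adjusted p = 0.0120), all by edgeR. The last call was lost without the 3 libraries named above (0.55 ± 0.13, adjusted p = 0.0756) and with the atrial markers as a covariate (0.59 ± 0.13, adjusted p = 0.0697), at differences no smaller than before. With the counts of Gm21451 added, the difference was 0.39 ± 0.15 in sedentary hearts (adjusted p = 0.183), 0.62 ± 0.15 in exercised hearts (adjusted p = 0.178) and 0.51 ± 0.10 over both (adjusted p = 0.0191). The summed levels did not separate the sexes fully, with 49.63 CPM in female exercised 2 and 49.65 CPM in male sedentary 2.

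Loxl1 was separated by sex in sedentary hearts. Sedentary females had 50.7, 51.4 and 57.9 CPM and sedentary males 42.1, 45.0 and 35.7 CPM, without overlap. Groups did not overlap in 4 of 9 members in this contrast, all 4 higher in females (Loxl1, Loxl2, Mmp2 and Timp2), against 12.2% of all genes. The Loxl1 log2 difference was 0.38 ± 0.11 with an adjusted p of 0.0797 by edgeR. In exercised hearts females had 41.6, 49.8 and 54.0 CPM and males 47.1, 40.7 and 45.9 CPM. These groups overlapped, and the difference was 0.12 ± 0.11. Lox went the other way in both conditions, with log2 differences of -0.28 ± 0.23 and -0.27 ± 0.23 that did not pass. In the 9 libraries the Loxl1 difference was 0.50 ± 0.16 in sedentary hearts (adjusted p = 0.301) and that of Lox -0.09 ± 0.26. The level of Loxl2 per kb was 5.40 ± 1.62 and 5.70 ± 0.934 times that of Lox in exercised and sedentary females, and 2.75 ± 0.559 and 3.72 ± 1.18 times in exercised and sedentary males (SD, n = 3). The ranges of this ratio overlapped between the sexes in sedentary hearts and not in exercised hearts, and the ratio was not tested.

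Mmp2 showed a small and even difference. In sedentary hearts the females were at 79.9 ± 1.71 CPM and the males at 69.5 ± 2.14 CPM (SD, n = 3), without overlap. The log2 difference was 0.20 ± 0.07 in sedentary hearts and 0.17 ± 0.07 in exercised hearts, where female exercised 1 lay among the males. Over both conditions it was 0.19 ± 0.05, with an adjusted p of 0.0533 by edgeR, and 0.19 ± 0.08 in the 9 libraries (adjusted p = 0.258). Mmp14, which activates the Mmp2 precursor, had 0.16 ± 0.17 in sedentary and 0.02 ± 0.17 in exercised hearts, and its groups overlapped in both.

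Of the inhibitors, Timp2 and Timp1 were higher in females by unadjusted p in sedentary hearts. Timp2 had 122, 123 and 112 CPM in sedentary females against 102, 108 and 86.6 CPM in sedentary males. In exercised hearts it had 126, 130 and 121 CPM in females against 121, 86.9 and 103 CPM in males. Neither pair of groups overlapped, though female exercised 3 and male exercised 1 lay side by side. The log2 difference was 0.27 ± 0.11 and 0.28 ± 0.11 in these conditions, and 0.27 ± 0.08 over both with an adjusted p of 0.0521 by edgeR. In the 9 libraries it was 0.21 ± 0.11 over both (adjusted p = 0.375).

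Timp1 had the largest difference of the members by size and the least precise. Exercised females had 2.91, 1.72 and 3.28 CPM and sedentary females 2.90, 1.38 and 2.61 CPM. Exercised males had 1.61, 1.67 and 0.894 CPM and sedentary males 0.566, 2.03 and 0.898 CPM. The exercised groups did not overlap, while among sedentary hearts male sedentary 2 lay above female sedentary 2. Groups did not overlap in 3 of 9 members in exercised hearts (Loxl2, Timp2 and Timp1), all higher in females, against 6.79% of all genes. Over both conditions Timp1 was 1.93-fold higher in females, with a 95% interval of 1.22 to 3.07 and an adjusted p of 0.0945 by edgeR. In the 9 libraries its log2 difference was 1.16 ± 0.34 (adjusted p = 0.140), against 0.95 ± 0.31 in all 12. Timp3 had a log2 difference of 0.10 ± 0.09 and Timp4 of 0.04 ± 0.23 over both conditions, with overlapping groups.

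**Figure D3:**
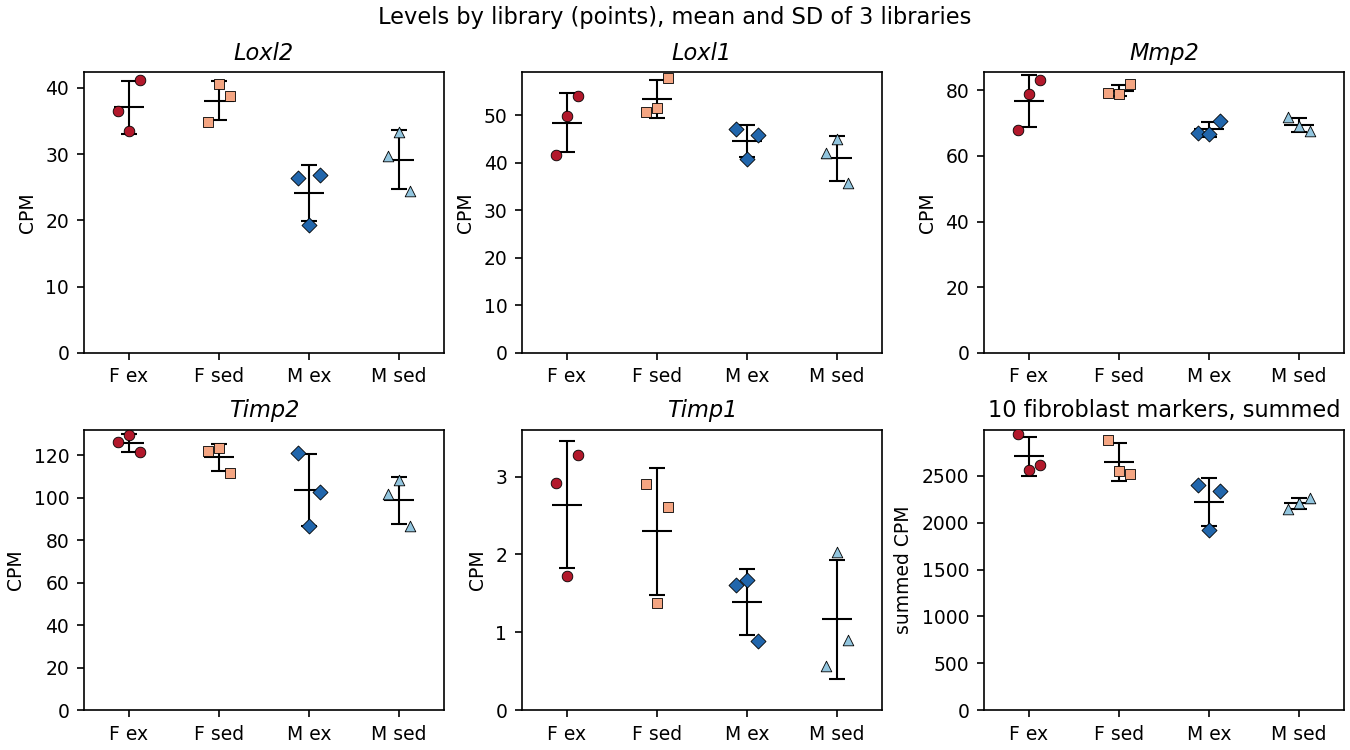
CPM of Loxl2, Loxl1, Mmp2, Timp2 and Timp1, and the summed CPM of 10 fibroblast markers, by group, with points for libraries and bars for the mean and SD of 3 libraries. In Loxl2 and in the marker sum every female library lies above every male library.

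Markers of fibroblasts moved with sex as these members did. The 10 markers (Pdgfra, Tcf21, Dcn, Lum, Dpt, Gsn, Col15a1, Mfap5, Pi16 and Cd248), all of which passed the filter, summed to 2563 to 2942 CPM in exercised females and 2517 to 2884 in sedentary females. The sums were 1924 to 2400 CPM in exercised males and 2144 to 2264 in sedentary males, below every female library. Over both conditions 10 of 10 markers were higher in females and 5 of 10 passed by edgeR, with a median log2 difference of 0.34 against 0.01 over all genes. The median over the 9 members was 0.19. In the 9 libraries 8 of 10 markers were higher in females and 1 of 10 passed, with a median of 0.40. For exercise the median difference of the fibroblast markers was 0.03 in females and -0.08 in males. Macrophage markers were also higher in females in 8 of 8 genes over both conditions, with 0 of 8 past the test and a median of 0.27. Their sums were 265 to 282 CPM in exercised and 200 to 262 in sedentary females, against 194 to 254 in exercised and 151 to 227 in sedentary males. Other markers moved with sex too over both conditions. The 4 adipocyte markers tested were all higher in females (0 passed), with a median of 4.03. Their summed level was as low as 0.528 CPM in sedentary males. Of 6 atrial markers tested, 5 were higher (1 passed), with a median of 3.88. All 3 platelet and all 6 epicardium and mesothelium markers tested were higher (0 passed), with medians of 0.72 and 0.46. Endothelial markers were higher in 3 of 8 (0 passed), and smooth muscle and pericyte markers in 4 of 8 (1 of 8 passed). All 8 heart muscle markers were lower in females (1 of 8 passed), with a median of -0.06. All 5 erythroid markers were higher in females over all 12 libraries, with 0 past the test, 5 at an unadjusted p under 0.05 and a median of 3.65, and 1 of 5 was higher over the 9 libraries, with a median of -0.23. All 5 valve and cartilage markers tested were higher in females over both conditions (1 passed), with a median of 0.98. In the 9 libraries 4 of 5 were higher, with a median of 0.42. The 7 markers listed summed to 24.9 to 44.8 CPM in sedentary females and 11.4 to 18.9 in sedentary males. In exercised hearts these sums overlapped, at 14.8 to 27.7 CPM in females and 13.3 to 18.7 in males. There too all 5 markers tested were higher in females (0 passed), with a median of 0.84. The 8 immediate early genes respond to handling of tissue. They summed to 3861 to 4514 CPM in sedentary females and 2090 to 3852 in sedentary males. In exercised hearts the sums overlapped, at 5590 to 6260 and 3252 to 7219 CPM. With exercise all 8 were higher in each sex (0 passed), with medians of 0.48 in females and 0.67 in males. Macrophage markers were higher with exercise in 8 of 8 in females and 7 of 8 in males (0 passed). Their median was 0.25 in each sex. All 5 erythroid markers were lower with exercise in females and 4 of 5 higher in males (0 passed), with medians of -3.96 and 0.52. Among sedentary females alone, the erythroid sums ran from 34.6 to 3630 CPM. The part of cell makeup or handling in the sex and exercise differences was not tested.

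Genes that act before and after these enzymes were read from 9 lists of 109 genes, of which 104 could be tested. For exercise 0 of 104 passed in either sex with edgeR, with 4 in females and 7 in males at an unadjusted p under 0.05. These are 3.85% and 6.73% of the list genes, near or below the 3.93% and 7.84% of all genes. By the rule for named genes, the smallest p in each sex is given, which belonged to Bsg, also called Emmprin, a membrane protein known for inducing metalloproteinases, with log2 differences of 0.15 ± 0.06 in females and 0.17 ± 0.06 in males. Plau, the urokinase that activates plasminogen, had 15.2 ± 3.02 CPM in males that ran against 9.33 ± 2.35 CPM in those that did not (SD, n = 3). Its log2 difference was 0.71 ± 0.25 with an adjusted p of 0.615.

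Between the sexes the most calls, in sedentary hearts and over both conditions, were in the list headed procollagen processing and lysyl oxidase activation. It also holds matrix proteins such as Fbln1. In sedentary hearts 3 of its 12 genes passed, in exercised hearts 0 and over both conditions 6, all higher in females, against 2.21%, 0.16% and 5.05% of all genes in either direction, with medians of 0.35, 0.28 and 0.33 on the log2 scale. Pcolce, which speeds the removal of the procollagen tail by Bmp1, had 59.0 ± 3.52 CPM in females and 44.0 ± 4.26 CPM in males (SD, n = 6 each). Its log2 difference over both conditions was 0.42 with an adjusted p of 0.00225 by edgeR. Its relative Pcolce2 had 0.45 (adjusted p = 0.0125) and Bmp1, the protease that also cuts the propeptide of Lox, had 0.28 (adjusted p = 0.0330). Fbln1, a matrix protein that binds elastic fibres, had 116 ± 8.01 CPM in females and 85.1 ± 6.63 CPM in males, with 0.44 on the log2 scale (adjusted p = 0.00072). Efemp2, which brings Lox to elastin, had 0.40 (adjusted p = 0.0188), and Adamts2, a procollagen protease, had 0.38 (adjusted p = 0.0119).

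The list of substrates and that of the plasminogen system and other protease inhibitors gave smaller counts over both conditions. All 11 collagen and elastin genes were higher in females in each condition. Of all genes, 52.4% were higher in females in sedentary hearts, and their median log2 difference in exercised hearts was 0.00. In sedentary hearts 1 of the 11 passed, in exercised hearts 0 and over both conditions 2, against 2.21%, 0.16% and 5.05% of all genes. The 2 over both conditions were Col6a2, at 0.34 (adjusted p = 0.00362 by edgeR), and Col6a1, at 0.27 (adjusted p = 0.0182). Serpinf1, a serpin that binds collagen, stands in the list with protease inhibitors, which does not show that it inhibits a protease. It was the only gene of the 104 to pass in exercised hearts. Females had 28.0 ± 2.65 CPM and males 17.8 ± 1.33 CPM (SD, n = 3). The log2 difference was 0.65 ± 0.12 (adjusted p = 0.0435 by edgeR). Reck, a membrane inhibitor of metalloproteinases, had 0.42 over both conditions (adjusted p = 0.0403). Of the other metalloproteinases, 2 of 11 passed over both conditions, Mmp23 at 0.47 (adjusted p = 0.0170) and Mmp16 at 1.11 (adjusted p = 0.0307). Of 15 genes of collagen crosslinking and hydroxylation only P3h3, a collagen prolyl hydroxylase, passed, at 0.35 (adjusted p = 0.0274).

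The remaining lists held few calls. Over both conditions 2 of 19 ADAM and ADAMTS proteases passed (Adam15 at 0.32 and Adamts8 at 1.32), 1 of 8 cathepsin and collagen uptake genes (Ctsz, 0.33) and 0 of 2 other lysyl oxidases. Loxl4 had 0.79 with an adjusted p of 0.0557 by edgeR. Of 16 TGF-beta signalling genes, Ltbp4 and Smad7 were higher in females, at 0.33 and 0.41. Ltbp1, which stores latent TGF-beta in the matrix, was lower, at -0.17 with an adjusted p of 0.0420. Over the 9 lists 19 of 104 genes passed over both conditions, 1 in exercised and 10 in sedentary hearts, against 5.05%, 0.16% and 2.21% of all genes. In the 9 libraries 2 of 104 passed over both conditions, Fbln1 (0.48, adjusted p = 0.0159) and Pcolce (0.43, adjusted p = 0.0460), against 0.699% of all genes, and 0 of 104 in sedentary or in exercised hearts alone. Serpinf1 in exercised hearts was then at 0.61 ± 0.12 (adjusted p = 0.0966). The differences of the other 17 genes over both conditions kept their sign and lost the call. The lists share their libraries with the fibroblast markers above.

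The balance within the families was read as a share of the summed level per kb. Timp2 made up 45.5 ± 4.14% of the 4 inhibitors, Timp3 33.4 ± 2.89%, Timp4 17.9 ± 3.50% and Timp1 3.26 ± 1.39% (SD over 12 libraries). The share of Timp4 ran from 11.1% in female exercised 2 to 24.2% in male sedentary 2. Loxl1 held 65.8% of the 3 lysyl oxidases, Loxl2 27.3% and Lox 6.84%. Among the males, the share of Loxl2 was 22.7 ± 2.11% in exercised and 27.8 ± 1.03% in sedentary hearts (SD, n = 3), and the ranges did not overlap. The ratio of Mmp2 and Mmp14 to the 4 inhibitors was 0.379 ± 0.0652 in exercised and 0.413 ± 0.0587 in sedentary females. In males it was 0.387 ± 0.0382 and 0.416 ± 0.0632, and all 4 groups overlapped. These shares and ratios were not tested.

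**Figure D4:**
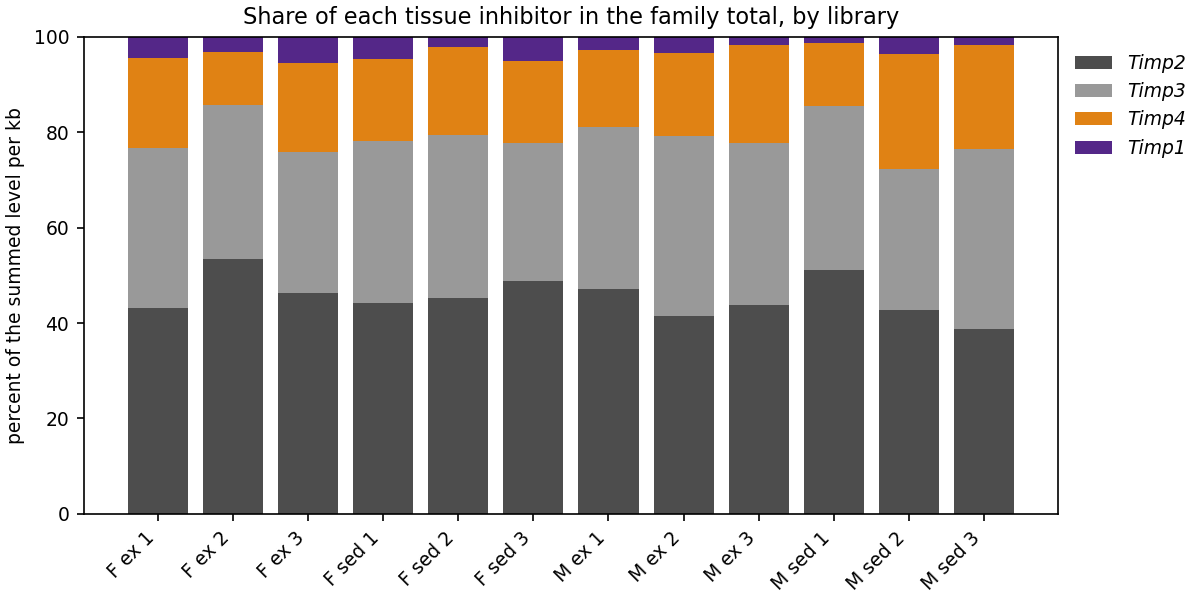
Share of Timp1, Timp2, Timp3 and Timp4 in the summed level per kb of the 4 inhibitors (y axis, percent), with 1 bar for each of the 12 libraries. Timp2 and Timp3 fill most of each bar, and the Timp4 share is lowest in female exercised 2.

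For each member the 3 genes whose log2 CPM ran most like it over the 12 libraries were taken by Pearson r, among genes with a mean above 1 CPM. The points share their libraries, sex and depth, so these values are descriptions. Timp1 ran closest with Tnfaip6 (r = 0.96), Ptx3 (0.94) and Has1 (0.93), 3 genes of the hyaluronan-rich matrix: Has1 makes hyaluronan, and the secreted proteins of Tnfaip6 and Ptx3 help to crosslink it. In male sedentary 1, the lowest for all 4 genes, Timp1 had 0.566 CPM, Tnfaip6 2.87, Ptx3 0.830 and Has1 0.679. Tnfaip6 and Ptx3 were highest in female exercised 1, at 23.1 and 26.4 CPM. None of these 3 passed for exercise in either sex or for sex over both conditions with edgeR.

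Loxl2 ran closest with its copy Gm21451 (r = 0.98). Reads within their shared stretch cannot be assigned by sequence, so the values of these 2 rows may not be independent of each other. The copy had 18.2 ± 2.26 CPM in exercised females, 19.0 ± 3.17 in sedentary females, 11.8 ± 2.53 in exercised males and 14.4 ± 2.10 in sedentary males (SD, n = 3). Its log2 difference between the sexes over both conditions was 0.51 ± 0.12 with an adjusted p of 0.0295 by edgeR. Mmp2 ran closest with Nemp1 (0.94), and Col6a2 (0.91) was also among its nearest genes. Loxl1 ran with Mxra7 (0.93), Timp2 with Necap2 (0.94), Timp3 with Pcsk4 (0.92), Mmp14 with Commd7 (0.88), Timp4 with Ccdc85a (0.86) and Lox with Fam169a (0.85).

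**Figure D5:**
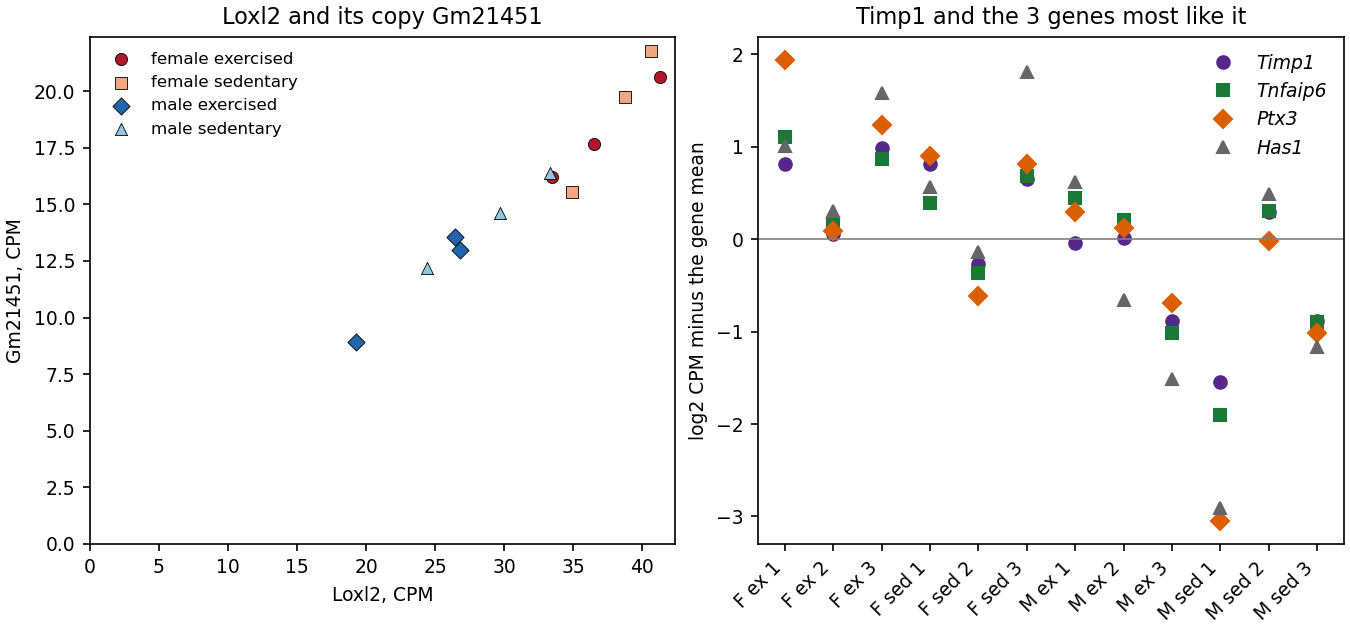
Left, CPM of Gm21451 against CPM of Loxl2 in the 12 libraries, coloured by group. Right, log2 CPM minus the mean of the gene for Timp1, Tnfaip6, Ptx3 and Has1 in each library, where male sedentary 1 is lowest for all 4.

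Among the members themselves 36 pairs were compared over the 12 libraries with permutation tests and Benjamini-Hochberg adjustment over the pairs. The permutations shuffled all 12 libraries regardless of group, so each p also takes in differences between the sexes. Loxl1 and Mmp2 had a Pearson r of 0.85 (p = 0.0004, adjusted p = 0.0144) and a Spearman rho of 0.83 (p = 0.00129, adjusted p = 0.0421) by these permutation tests. Pearson r was 0.86 without the 2 libraries farthest from the median. Within the 6 female libraries r was 0.95 and within the 6 male libraries it was 0.23, so the relation was weak in males. Loxl2 and Timp2 had r = 0.78 (p = 0.00263, adjusted p = 0.0473) and rho = 0.70 (p = 0.0147, adjusted p = 0.133) by permutation. Its Pearson r was 0.46 without the 2 farthest libraries, -0.49 in females and 0.64 in males, so the relation did not hold in females and rested in part on those 2 libraries. Loxl2 and Mmp2 had r = 0.76 (p = 0.00453, adjusted p = 0.0544) and rho = 0.81 (p = 0.00234, adjusted p = 0.0421) by permutation, with 0.33 in females and 0.63 in males.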

How the data were processed

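The deposited table holds unnormalised counts of reads per gene. Per the submitters' processing notes, the authors used Trimmomatic 0.36, STAR 2.5.2b, the build GRCm38 and featureCounts of Subread 1.5.2. The sources used here do not give the annotation release, the strand setting or the treatment of reads with several positions. Identifiers matched the GRCm38 annotation for 55141 rows. The 37 mitochondrial rows, which held 27.3% of counts in female sedentary 2 and 0 elsewhere, were removed by edgeR's filter on low counts.

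The tool was edgeR 4.0.16 (R 4.3.3), with trimmed mean of M-values scaling, 1 group-means model over 12 libraries (8 residual degrees of freedom), robust quasi-likelihood tests, and Benjamini-Hochberg adjustment over 16213 genes at 0.05. Levels are CPM with SD, and differences are log2 with SE and 95% intervals. The code was tested on simulated data. Alternatives were RLE scaling, no or a stricter filter, DESeq2 1.42.0, voom of limma 3.58.1, fits of only the groups compared, an atrial covariate, the 9 libraries left without female exercised 2 and female sedentary 1 and 2, and each library left out. The contrast of sexes over both conditions, the sum of Loxl2 with its copy and the list counts in the 9 libraries were added after seeing the data.

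Members and lists were chosen with earlier results of these data known. Named genes were the members, list genes past the test or else the 2 of smallest p, the 3 genes most like each member, and genes overlapping a member. The text names a part of these, and some are not reported here. The fibroblast and other marker lists are textbook genes. Groups share no replicate numbers.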

Additional observations from a re-analysis of the deposited data

How the results depend on the processing

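No paired analysis was possible because the groups share no replicate numbers. With DESeq2 the count of all genes past the test was 1 gene for exercise in females, 24 in males, 12 for the difference between these effects and 11 for their average, where edgeR called 0. For sedentary females against males, edgeR's 358 genes became 876 with DESeq2, 67 with the atrial covariate and 14 without female exercised 2 and female sedentary 1 and 2, which leaves 9 libraries. For exercised hearts, 26 became 48 without a filter, 167 with DESeq2 and 15 with only these groups fitted. Over both conditions, 818 became 1371 with DESeq2, 125 with the atrial covariate and 119 in the 9 libraries. With each library left out in turn, the counts ran from 0 to 1 for exercise in females, for the difference and for the average, from 68 to 236 for sedentary sex, from 17 to 55 for exercised sex and from 421 to 837 over both. The causes of these shifts were not tested.

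Over the members, the settings that kept all libraries or these 9 turned the sign of 17 differences, none past the test. In the 9 libraries these were Loxl2 (0.0060) and Timp4 (0.40) for exercise in females, Timp3 (0.29) for the difference of effects, Timp4 (0.14) for the average, Timp3 (-0.20) and Timp4 (-0.19) for sedentary sex and Timp3 (-0.052) for sex over both. With the atrial covariate they were Lox for the difference (-0.059), sedentary sex (0.034) and sex over both (0.0039), and Timp3 for exercised sex (-0.074) and both (-0.033). With voom they were Timp4 for exercise in males (0.021), Lox (-0.047), Timp2 (-0.0055) and Timp4 (-0.12) for the difference, and Mmp14 for exercised sex (-0.046).

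Leaving out 1 library turned the sign in 62 fits, none past the test. For exercise in females the ranges were -0.10 to 0.35 for Lox, -0.13 to 0.029 for Loxl2, -0.13 to 0.017 for Mmp2, -0.063 to 0.43 for Timp1, -0.14 to 0.088 for Timp3 and -0.27 to 0.19 for Timp4. In males they were -0.089 to 0.28 for Lox, -0.086 to 0.94 for Timp1, -0.062 to 0.18 for Timp2 and -0.39 to 0.16 for Timp4. For the difference they were -0.21 to 0.25 for Lox, -0.094 to 0.048 for Mmp2, -0.37 to 0.017 for Mmp14, -0.74 to 0.29 for Timp1, -0.099 to 0.14 for Timp2 and -0.22 to 0.33 for Timp4. For the average they were -0.054 to 0.039 for Loxl1, -0.0096 to 0.11 for Timp3 and -0.22 to 0.052 for Timp4. For sex they were -0.26 to 0.29 for Timp4 in sedentary hearts, -0.20 to 0.18 for Mmp14, -0.075 to 0.10 for Timp3 and -0.14 to 0.32 for Timp4 in exercised hearts, and -0.021 to 0.17 for Mmp14 and -0.10 to 0.18 for Timp4 over both.

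Other settings called members that edgeR did not. DESeq2 called Loxl1 in sedentary sex (adjusted p = 0.0332), Loxl2 in exercised sex (0.00779), and Loxl1 (0.0454), Mmp2 (0.0279), Timp1 (0.0379) and Timp2 (0.0203) over both. The stricter filter called Mmp2 (0.0469) and Timp2 (0.04995), and voom called Timp2 (0.0446). Without female exercised 1, Loxl1 (0.0412) and Mmp2 (0.0234) passed over both. Timp1 passed without male sedentary 2 (0.0228), and Timp2 passed without male exercised 1 (0.0132) or male sedentary 2 (0.0431). The call of Loxl2 over both conditions held with each library left out, at 0.43 to 0.55. With 15 to 87 counts per library, Timp1 had the least depth of the 9.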
